A study of Mus musculus with 2 samples.

Results

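The antioxidant and NADPH oxidase genes are a set of 39 genes, taken from the 31053 genes of the deposited tables by their symbols. They comprise 4 genes of the superoxide-making NADPH oxidase (Cybb, Cyba, Ncf1 and Ncf4) and 35 genes that remove superoxide, peroxides and oxidised thiols or that carry, regulate and supply these activities. The 4 oxidase genes were set against the other 35 in each cell class and genotype. Cells were profiled in 2 droplet-based libraries, 1 from Mr1-/- mice, which lack the MHC class I-like molecule that presents vitamin B metabolites to MAIT cells, and 1 from Mr1+/+ mice. All mice were 7 months old and untreated. Hippocampi were dissociated with a kit made for isolating primary neurons, and cells that excluded DAPI (alive) and took up the DNA dye Draq5 were sorted and loaded on a 10x Genomics 5' kit, in which every captured molecule carries its own barcode (unique molecular identifier, UMI). The number of mice behind each library and their sex are not given in the labels. With 1 library per genotype no difference between the genotypes has a replicate check, no test was possible, and the genotype cannot be told apart from the dissection, the sort or the library. Intervals below are 95% intervals for counting error only.

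The NADPH oxidase of phagocytes passes electrons from NADPH across a membrane to oxygen and so makes superoxide. Cybb encodes its catalytic subunit, Cyba the partner that stabilises it in the membrane, and Ncf1 and Ncf4 encode subunits that join from the cytosol on activation. Superoxide dismutases turn superoxide into hydrogen peroxide, which catalase, the glutathione peroxidases and the peroxiredoxins reduce. Glutathione and thioredoxin supply the electrons for both peroxidase families, and the transcription factor NRF2, held back by KEAP1, raises many of these genes under oxidative or electrophilic stress. In brain, glutathione supply is mostly ascribed to astrocytes and phagocyte superoxide to microglia.

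Mr1 itself gave 2 UMIs (0.242 to 7.22) over all kept Mr1-/- cells and 130 UMIs (109 to 154) over all kept Mr1+/+ cells, as labelled; which part of the gene is deleted is not given in the labels. After filtering, 5107 of 5347 Mr1-/- barcodes and 5992 of 6410 Mr1+/+ barcodes were kept, out of 18349132 and 23244575 UMIs. The libraries shared 44 cell barcodes. Clusters were made without the 39 genes and named from marker genes, so that "microglia-like" means only that a cluster carries microglial markers. There were 786 and 730 microglia-like, 1486 and 1336 endothelial-like, 971 and 965 mural-like (pericyte and smooth muscle markers), 477 and 956 astrocyte-like and 956 and 1436 oligodendrocyte-like cells in the Mr1-/- and the Mr1+/+ library. Neuron-like (163 and 265 cells), neuroblast-like (59 and 67) and ependymal-like cells (72 and 59) were smaller classes. Median depth of the 5 large classes lay between 2196 and 4354 UMIs a cell. Levels are given as CPM, the UMIs of a gene scaled to a common total of UMIs of the class in that library. Each molecule was counted once at its 5' end, so a level does not grow with transcript length.

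All 4 oxidase genes were highest in microglia-like cells in both libraries, whereas the 35 antioxidant genes were spread over every class. Summed over Cybb, Cyba, Ncf1 and Ncf4, the level was 1993 CPM (1950 to 2038) in Mr1-/- and 2003 CPM (1959 to 2048) in Mr1+/+ microglia-like cells. That was 80.1% and 79.5% of all UMIs of these genes. Microglia-like cells held 15.1% of the antioxidant UMIs of all Mr1-/- cells and 11.6% of those of all Mr1+/+ cells. They made up 15.4% and 12.2% of the cells, which is not their share of all UMIs, so these percentages are not like for like. The CPM levels that follow set the antioxidant UMIs against all UMIs of a class. Summed antioxidant levels were lowest, among the 5 large classes, in microglia-like cells, with 6064 CPM for Mr1-/- and 5979 CPM for Mr1+/+. They were highest in oligodendrocyte-like cells, at 13066 and 11806 CPM, and the astrocyte-like sums were 11097 and 11117 CPM. A sum of this kind follows its most abundant genes, and in oligodendrocyte-like cells Gstp1 alone made up 5681 and 4705 CPM of it.

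**Figure D1:**
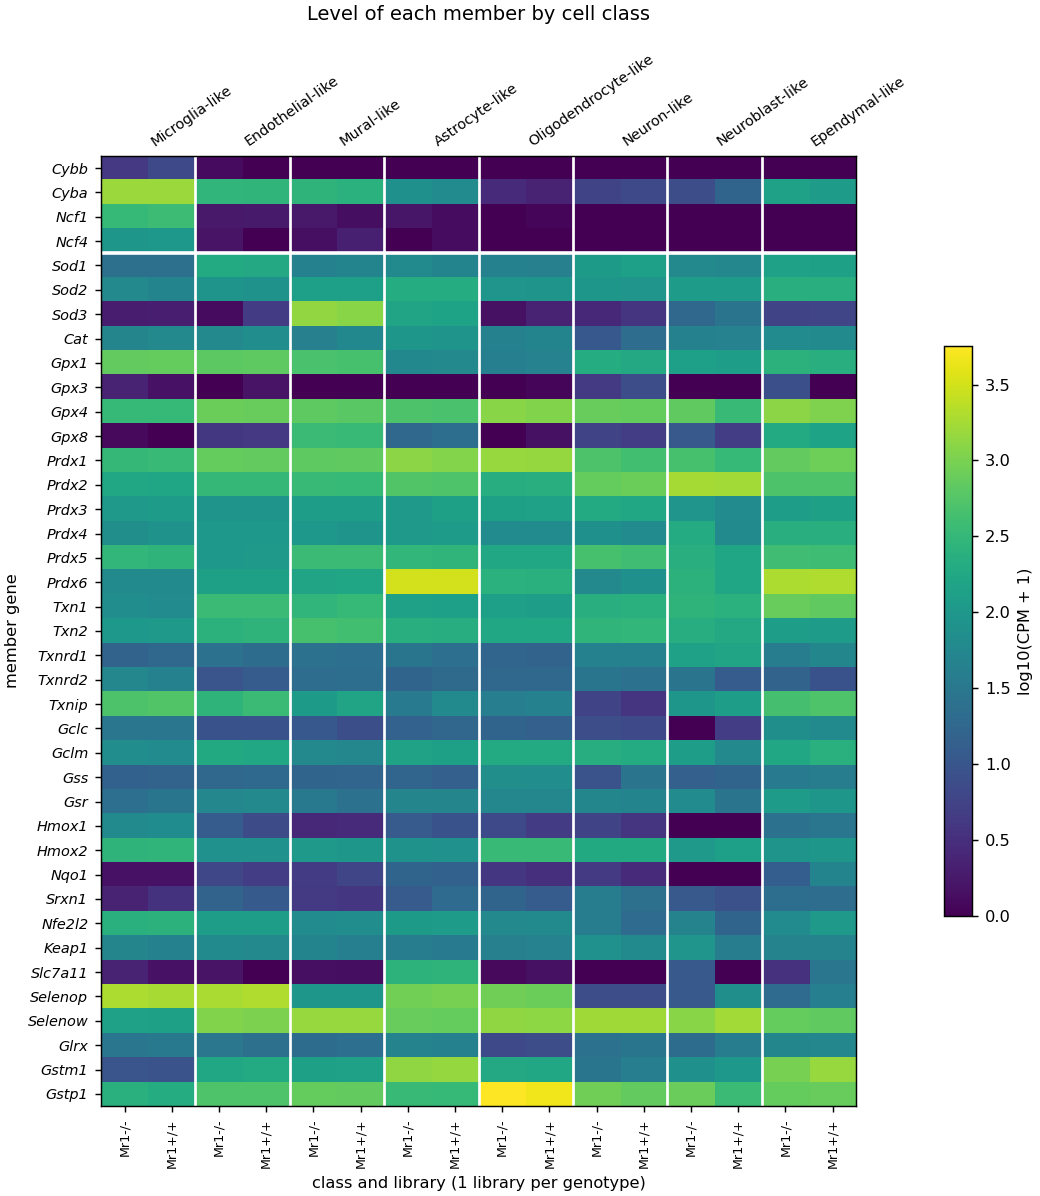
Level of each of the 39 genes (rows, log10 of CPM + 1 by colour) in 8 classes (column pairs), with the Mr1-/- library left of the Mr1+/+ one in each pair and the oxidase genes above the horizontal white line. Ncf1 and Ncf4 are bright in microglia-like cells and dark elsewhere, and Cyba is bright there and of middle level in vessel cells. Within its own row Sod3 is brightest in mural-like, Prdx6 in astrocyte-like and then ependymal-like and Gstp1 in oligodendrocyte-like cells.

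Microglia-like cells were set against all other kept cells, taking genes that in each library had at least 50 CPM in microglia-like or in the other cells and calling a gene past 4-fold in both libraries after adding 10 CPM. Cyba, Ncf1 and Ncf4 were measured and higher by this rule, but Ncf1 and Ncf4 were measured only through the microglia-like cells where they are high, so that their call was fixed by the filter. None of the 24 measured antioxidant genes was higher and 6 were lower: Sod3, Gpx8, Prdx6, Selenow, Gstm1 and Gstp1. Of these, Sod3, Gpx8 and Gstm1 were under 10 CPM in microglia-like cells and were measured only through the others. Among all 4448 genes measured, 10% were higher and 15.8% lower, and no support is drawn from the counts of members beside these shares. The antioxidant genes were below the other cells in both libraries for 17 of 24 and above in both for the other 7. Hmox1, the stress-inducible haem oxygenase, was the nearest to a call upwards, with 61.5 CPM in microglia-like cells against 7.87 CPM in the other cells of the Mr1-/- sample (7.81-fold) and 66.3 against 5.34 CPM in the Mr1+/+ sample (12.4-fold). After adding 10 CPM the Mr1-/- value lay just under 4-fold.

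The cytosolic subunit genes marked microglia-like cells almost alone. Of the Ncf1 UMIs, 1308 of 1314 in Mr1-/- cells and 1441 of 1447 in Mr1+/+ cells lay in microglia-like cells, at 327 CPM (310 to 345) and 372 CPM (353 to 391.7). Ncf4 stood at 97.7 CPM (88.3 to 108) in Mr1-/- cells and 98.6 CPM (89.0 to 109) in Mr1+/+ cells, with 391 of 394 and 382 of 386 UMIs in these cells. Outside microglia-like cells neither gene had more than 3 UMIs in any other class and library. The level that stray microglial RNA alone would give there, read from the microglial markers found in other classes, was under 1.1 CPM for both genes. In endothelial-like cells Ncf1 stood at 0.834 CPM (0.172 to 2.44) in Mr1-/- cells and 0.866 CPM (0.179 to 2.53) in Mr1+/+ cells, an interval that includes the stray levels of 0.466 and 0.567 CPM.

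Cyba was the exception among the oxidase genes. Its level was 1565 CPM (1527 to 1605) in Mr1-/- and 1527 CPM (1488 to 1566) in Mr1+/+ microglia-like cells. It also reached 292 and 284 CPM in endothelial-like, 272 and 247 CPM in mural-like, 142 and 114 CPM in ependymal-like and 76.5 and 63.5 CPM in astrocyte-like cells of the Mr1-/- and Mr1+/+ libraries. These levels lay above the stray-RNA level, which was between 2.08 and 4.25 CPM in the same 4 classes. In oligodendrocyte-like cells Cyba stood at 1.91 CPM (0.826 to 3.77) in Mr1-/- cells and 1.28 CPM (0.552 to 2.52) in Mr1+/+ cells, which includes the stray levels of 1.90 and 1.58 CPM. In those cells Cyba thus gives the background that the others can be read against. In the small fibroblast-like class (32 and 29 cells) Cyba had 431 and 605 CPM. Within mural-like cells it was highest in the cluster led by Kcnj8, Vtn and Abcc9, pericyte markers, at 401 CPM in Mr1-/- cells and 330 CPM in Mr1+/+ cells. It was lowest in the cluster led by the contractile genes Cnn1, Tagln, Acta2 and Myh11, at 151 and 161 CPM.

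**Figure D2:**
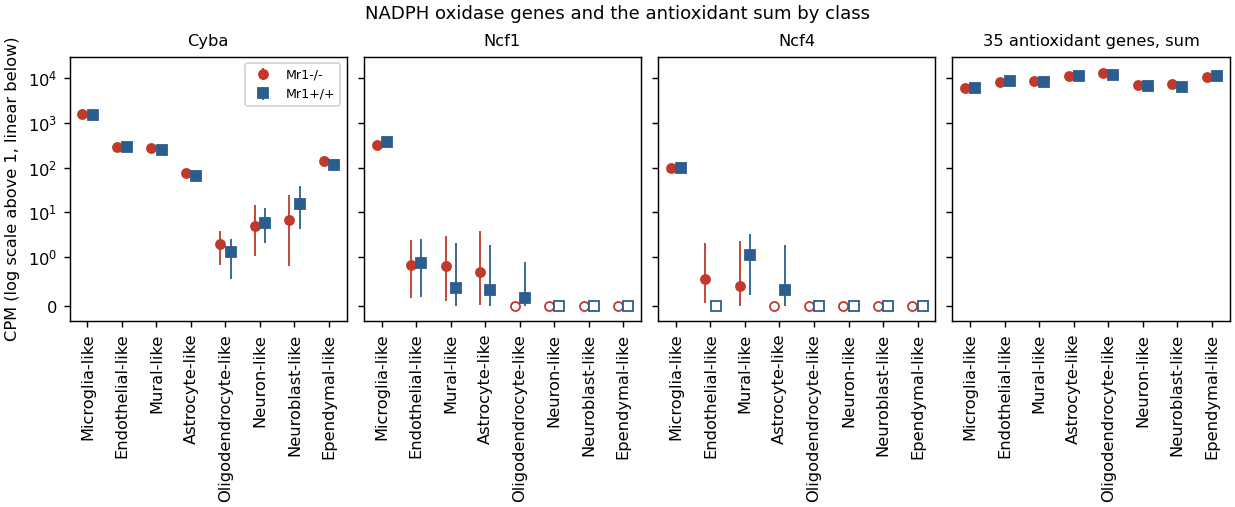
CPM (log scale above 1, linear below) of Cyba, Ncf1 and Ncf4 and of the sum of the 35 antioxidant genes in 8 classes; Mr1-/- library as circles left of the Mr1+/+ one as squares, bars are 95% Poisson intervals and open symbols are counts of 0. Cyba is above 1500 CPM in microglia-like and below 2 CPM in oligodendrocyte-like cells, Ncf1 and Ncf4 drop to 0 or near it outside microglia-like cells, and the antioxidant sum stays between 5979 and 13066 CPM in the large classes.

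Per cell the picture was the same. After thinning every cell to 1500 UMIs, a Cyba UMI was present in 88.6% (86.1% to 90.8%) of the Mr1-/- microglia-like cells and in 87.4% (84.6% to 89.9%) of the Mr1+/+ ones. The unthinned shares were 95.3% and 94.1%. In thinned oligodendrocyte-like cells these shares were 0.106% and 0.232%, and in thinned endothelial-like cells 35.4% and 33.1%. For Ncf1 the thinned shares in microglia-like cells were 38.3% (34.8% to 41.9%) in the Mr1-/- and 44.2% (40.3% to 48.2%) in the Mr1+/+ sample, and for Ncf4 15.7% and 15.3%. Thinning left out 47 and 101 microglia-like cells. At this depth 39.1% of the Mr1-/- microglia-like cells showed 2 of the 4 oxidase genes, against 42.1% of the Mr1+/+ ones. All 4 were seen in 0 of 739 and 0 of 629 cells.

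Cybb, the catalytic subunit gene, was hardly detected. There were 13 Cybb UMIs in Mr1-/- microglia-like cells, at 3.25 CPM (1.73 to 5.56), and 22 in Mr1+/+ ones, at 5.68 CPM (3.56 to 8.60). Most of the Mr1-/- UMIs came from a few cells: 13 microglia-like cells with at least 3 border macrophage markers (such as Mrc1, Pf4 and Cd163) held 11 of the 13 UMIs. In the Mr1+/+ library 11 such cells held 10 of 22. Cells with these markers stood at 95.6 CPM (47.7 to 171) for Mr1-/- and 72.3 CPM (34.7 to 133) for Mr1+/+, against 0.515 CPM and 3.21 CPM in the remaining microglia-like cells. The other subunits split far less: Cyba had 1851 and 1923 CPM in Mr1-/- and Mr1+/+ cells with these markers and 1557 and 1512 CPM in the rest, and Ncf1 had 339 and 325 CPM with them and 327 and 374 CPM in the rest. All Cybb UMIs of the class lay in the cluster led by Ccl4, Ccl3 and Lyz2 (347 Mr1-/- and 273 Mr1+/+ cells), and the cluster led by Tmem119 and P2ry12 (397 and 365 cells) had 0 in both libraries. The upper limits of these 0 counts were 2.56 CPM in Mr1-/- and 2.61 CPM in Mr1+/+ cells, so a low level there cannot be told from none. Summed over all 7 border macrophage markers, the microglia-like class had 63.2 CPM in Mr1-/- cells and 56.3 CPM in Mr1+/+ cells, and none of the 7 markers was at 0 in either. Neutrophil markers, of a cell type that also uses this oxidase, summed to 135 CPM in Mr1-/- and 20.1 CPM in Mr1+/+ microglia-like cells, with 1 and 3 of 6 markers at 0 and 1 cell in each library carrying at least 3. All 8 T and NK cell markers were at 0 in both. Without cells carrying other myeloid markers, the oxidase sum was 1982 CPM in Mr1-/- and 1988 CPM in Mr1+/+ cells, and the log2 ratio of Ncf1 was -0.19.

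Other genes of the oxidase and its close relatives separated along the same lines. Rac2, the haematopoietic small GTPase of the complex, had 272 and 271 CPM in Mr1-/- and Mr1+/+ microglia-like cells and at most 3.79 CPM in any other class of at least 50 cells. Rac1, its widely expressed relative, had 621 and 613 CPM in microglia-like cells and 679 and 712 CPM in endothelial-like cells. Hvcn1, a voltage-gated proton channel, stood at 187 and 182 CPM in microglia-like cells, and Nrros, known as a negative regulator of reactive oxygen species, at 180 and 170 CPM. BC017643, which the gene name table lists as Cybc1, a chaperone of the Cybb and Cyba heterodimer, had 121 and 155 CPM in microglia-like cells. The other catalytic subunits were near 0 everywhere: over the 8 classes of at least 50 cells, none of Nox1, Nox3, Nox4, Duox1 and Duox2 had more than 1 UMI in any class and library.

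Among the antioxidant genes, the highest class differed from gene to gene. Over the 8 classes of at least 50 cells, 27 of the 35 had the same highest class in both libraries. For 18 of these the interval of the highest class did not overlap that of the second in either library. These counts were not made over all genes, so they are not read as a trait of the set. Microglia-like cells led for 5 antioxidant genes, ependymal-like cells for 6, oligodendrocyte-like cells for 4 and mural-like cells for 3. Astrocyte-like and neuron-like cells led for 3 each, neuroblast-like cells for 2 and endothelial-like cells for 1. In the same order of classes, 4, 2, 4, 3, 2, 1, 2 and 0 of these had intervals clear of the second class in both libraries.

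The 3 superoxide dismutases peaked in different classes. Sod1, the cytosolic enzyme, had 196 and 182 CPM in Mr1-/- and Mr1+/+ endothelial-like cells. Ependymal-like cells followed at 142 and 134 CPM with overlapping intervals, and microglia-like cells were lowest at 23.5 and 23.0 CPM. Sod2, the mitochondrial enzyme, was highest in ependymal-like cells (232 and 225 CPM), close to astrocyte-like cells (208 and 210 CPM), and again lowest in microglia-like cells (57.0 and 48.3 CPM). Sod3, the secreted enzyme, was a mural-like gene, with 1390 CPM (1344 to 1438) in Mr1-/- cells, 1202 CPM (1161 to 1244) in Mr1+/+ cells and 91.8% and 85.6% of its UMIs there. Within mural-like cells Sod3 had 3179 and 3007 CPM in the pericyte-marker cluster, 297 and 382 CPM in a cluster led by Nrip2 and Map3k7cl and 107 and 96.4 CPM in the Cnn1 cluster. The highest cluster thus exceeded the lowest 29.7-fold in Mr1-/- cells and 31.2-fold in Mr1+/+ cells. Sod3 was also among the 10 leading genes of the pericyte-marker cluster, although it had not been used for the clustering. Astrocyte-like cells held a lower Sod3 level of 154 and 152 CPM, and microglia-like cells 0.9998 and 1.033 CPM.

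Catalase and the glutathione peroxidases were less confined. Cat, which splits hydrogen peroxide in peroxisomes, was highest in astrocyte-like cells at 97.0 and 86.2 CPM, and its levels in the other large classes lay between 42.2 and 69.3 CPM. Gpx1, the cytosolic glutathione peroxidase, had 717 CPM in Mr1-/- and 734 CPM in Mr1+/+ microglia-like cells, 635 and 661 CPM in endothelial-like cells and 476 and 453 CPM in mural-like cells, but 41.1 and 45.9 CPM in oligodendrocyte-like cells. Gpx4, which reduces lipid hydroperoxides, ran the other way, with 1282 and 1070 CPM in ependymal-like, 1211 and 1121 CPM in oligodendrocyte-like and 327 and 328 CPM in microglia-like cells. Gpx8, a peroxidase of the endoplasmic reticulum, followed Sod3 in mural-like cells at 357 and 346 CPM, with 664 and 697 CPM in the pericyte-marker cluster and 122 and 114 CPM in the Cnn1 cluster. Gpx3, the plasma enzyme, had 11 UMIs in all Mr1-/- cells and 16 in all Mr1+/+ cells, and its highest levels rested on 3 UMIs in Mr1-/- ependymal-like and 7 UMIs in Mr1+/+ neuron-like cells.

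The peroxiredoxins, which reduce peroxides with a cysteine thiol, also divided by class. Prdx6, a peroxiredoxin with phospholipase activity, stood at 3112 CPM (3022 to 3204) in Mr1-/- and 3161 CPM (3098 to 3225) in Mr1+/+ astrocyte-like cells and at 1988 and 2016 CPM in ependymal-like cells, against 59.2 and 59.6 CPM in microglia-like cells. Prdx1 was highest in oligodendrocyte-like cells (1505 and 1452 CPM) and next in astrocyte-like cells (1244 and 1131 CPM). Prdx2 was highest in neuroblast-like cells, at 1776 and 1735 CPM. Prdx3, the mitochondrial member, was highest in neuron-like cells at 198 and 173 CPM, as was Prdx5 at 458 and 405 CPM. For Prdx5 the ependymal-like cells, at 401 and 393 CPM, had overlapping intervals. Prdx4, the member of the secretory pathway, had 235 and 225 CPM in ependymal-like cells. Srxn1, the sulfiredoxin that rescues overoxidised peroxiredoxins, had at most 36.4 CPM in any class of at least 50 cells. It was highest in neuron-like cells, at 36.4 and 23.55 CPM, with intervals overlapping those of ependymal-like cells.

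In the thioredoxin system, Txn1 (cytosolic thioredoxin) was highest in ependymal-like cells at 768 and 698 CPM and Txn2 (mitochondrial thioredoxin) in mural-like cells at 451 and 407 CPM. Txnrd1, the cytosolic reductase, was highest in neuroblast-like cells at 140 and 155 CPM. Txnrd2, the mitochondrial reductase, was highest in microglia-like cells at 53.2 and 44.1 CPM. Txnip, which binds thioredoxin and curbs glucose uptake, was highest in microglia-like cells at 501 and 535 CPM. Ependymal-like cells, at 450 and 520 CPM, had overlapping intervals. Glrx, a glutaredoxin, stayed below 55 CPM in all 8 classes. It was highest in ependymal-like cells, at 51.4 and 54.3 CPM, with intervals overlapping those of astrocyte-like cells.

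Genes of glutathione supply and use were mostly highest in astrocyte-like, ependymal-like and oligodendrocyte-like cells. Slc7a11, the cystine importer, had 267 and 279 CPM in Mr1-/- and Mr1+/+ astrocyte-like cells and less than 2 CPM in the other large classes. The fibroblast-like class had a higher Slc7a11 level, 1606 CPM (1386 to 1852) in Mr1-/- cells and 1120 CPM (932 to 1336) in Mr1+/+ cells. Gclc, the catalytic subunit of glutamate-cysteine ligase, was highest in ependymal-like cells at 73.4 and 59.5 CPM. Its modifier Gclm had between 53.2 and 196 CPM in the large classes, 215 and 205 CPM in neuron-like and 171 and 243 CPM in ependymal-like cells. Gss, glutathione synthetase, was highest in oligodendrocyte-like cells at 71.0 and 69.2 CPM, and Gsr, glutathione reductase, in ependymal-like cells at 115 and 95.6 CPM. Of the glutathione transferases, Gstm1 had 1361 and 1448 CPM in astrocyte-like and 956 and 1473 CPM in ependymal-like cells and stood at 8.75 and 8.26 CPM in microglia-like cells. Gstp1 had 78.5% and 80.8% of its UMIs in oligodendrocyte-like cells.

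Haem oxygenases and selenoproteins gave further contrasts. Of the Hmox1 UMIs, 70.1% in Mr1-/- cells and 73.2% in Mr1+/+ cells lay in microglia-like cells. Hmox2, the constitutive enzyme, was highest in oligodendrocyte-like cells at 354 and 346 CPM and next in microglia-like cells at 277 and 282 CPM. Selenop, the secreted selenium carrier, stood at 1928 and 1820 CPM in microglia-like and 1870 and 2048 CPM in endothelial-like cells, so that its order differed between the libraries. Among oligodendrocyte-like cells Selenop had 1846 and 1691 CPM in the cluster led by Klk6 and 292 and 278 CPM in the cluster led by Ptgds and Opalin. Gstp1 ran against it, with 3396 and 3000 CPM in the Klk6 cluster and 7627 and 5928 CPM in the Opalin cluster. Selenow, a small cytosolic selenoprotein, lay between 677 and 1720 CPM in the other 7 classes and was lowest in microglia-like cells at 139 and 134 CPM. Its highest level was in neuron-like cells for Mr1-/- (1662 CPM) and in neuroblast-like cells for Mr1+/+ (1720 CPM).

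Nfe2l2, which encodes NRF2, was highest in microglia-like cells, at 238 CPM in Mr1-/- cells and 255 CPM in Mr1+/+ cells, against 57.4 and 58.8 CPM in oligodendrocyte-like cells. Keap1 lay between 34.9 and 62.3 CPM in all 5 large classes, with 79.4 and 62.2 CPM in neuron-like and 89.98 and 37.9 CPM in neuroblast-like cells. Nqo1, a quinone reductase widely used as an NRF2 target, was near 0 in microglia-like cells (0.4999 and 0.5163 CPM) and had 15.02 and 13.8 CPM in astrocyte-like and 12.2 and 49.1 CPM in ependymal-like cells (5 and 19 UMIs). The sites in front of these genes were looked up because NRF2 with a small Maf protein binds the antioxidant response element, whose core was searched as TGACNNNGC on both strands in RefSeq promoters (GRCm38.p6, 250 bases before to 50 after the start). Promoters were found for 33 of the 39 genes, in 44 entries. Sod3, Prdx6, Gclc, Gsr, Hmox1 and Ncf4 had no entry. The core occurred in 6 of 33 genes and 13.6% of their entries, against 12.4% of all 32817 promoters. The 6 matches are printed with 8 bases on either side, the core in capitals, each read 5′ to 3′ on the strand that carries TGAC, here the minus strand of the assembly in every case. None overlaps a match of the other motif searched, given with Txnip below.
Nfe2l2, chr2:75704887-75704911: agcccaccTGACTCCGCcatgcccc
Srxn1, chr2:152105544-152105568: tctcactcTGACCTAGCtgcccact
Gclm, chr3:122245415-122245439: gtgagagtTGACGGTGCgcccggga
Prdx1, chr4:116685458-116685482: acgggggaTGACTCAGCgctttccc
Txnrd1, chr10:82859106-82859130: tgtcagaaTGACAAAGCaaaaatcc
Sod1, chr16:90220698-90220722: cctgagtcTGACCACGCccaccttg
The genes that carry the core did not share a class: Prdx1 led in oligodendrocyte-like, Txnrd1 in neuroblast-like, Sod1 in endothelial-like and Nfe2l2 in microglia-like cells.

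Between the genotypes the set was nearly level. A gene was measured in a class where its mean over the libraries was at least 50 CPM and it had at least 50 UMIs in all. In the 5 large classes 31 of the 39 genes were measured in at least 1 class and 16 in all 5, which made 112 gene and class pairs. After adding 10 CPM, none of the 112 ratios of Mr1-/- over Mr1+/+ was above 5 to 4, the fold used for a call, and 2 were below 4 to 5, both of Txnip. Gpx3, Txnrd1, Txnrd2, Gclc, Nqo1, Srxn1, Glrx and Cybb were measured in none of the 5 classes. In microglia-like cells 0 of 23 measured members passed, where 0.909% of 3191 genes were higher, 1.35% lower and 2.26% either way, and the median log2 ratio of the members was -0.01 against -0.02 over all genes. In endothelial-like cells 0 of 24 were higher and 1 lower, against 1.94% and 3.55% of all genes (5.48% either way), with medians of 0.01 and 0.01. In mural-like cells 0 of 22 were higher and 1 lower, against 2.31% and 2.28% (4.6% either way), with medians of 0.04 for the members and 0.01 for all genes. In astrocyte-like cells 0 of 24 passed, against 1.94% higher and 2.95% lower (4.88% either way), with medians of 0.02 and -0.01. In oligodendrocyte-like cells 0 of 19 passed, against 0.589% higher and 1.8% lower (2.39% either way), with medians of 0.03 and -0.01. These shares are close to those of all genes.

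**Figure D3:**
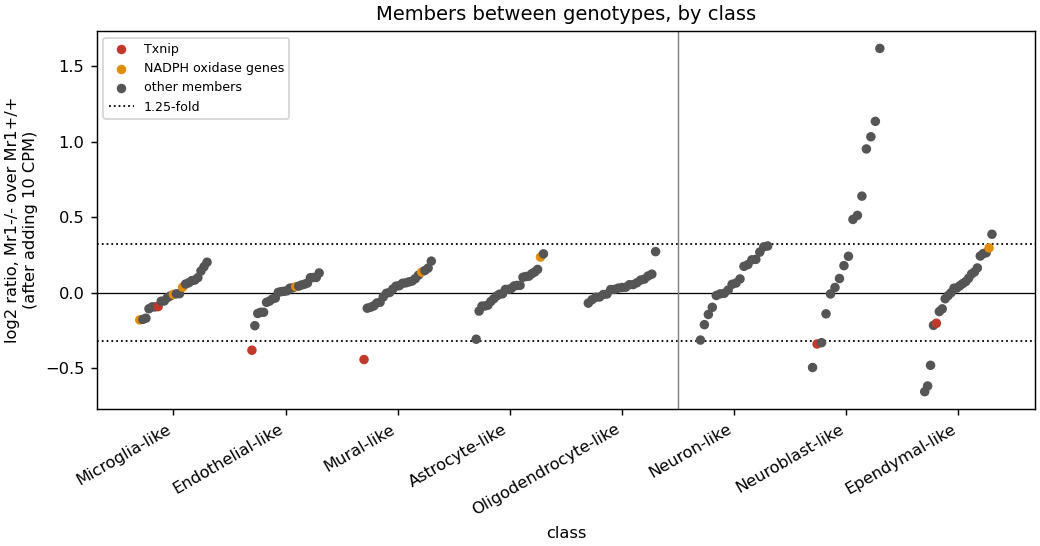
Log2 ratio of Mr1-/- over Mr1+/+ CPM (after adding 10 CPM) for each measured member in 8 classes, members in rank order within a class, Txnip in red, oxidase genes in orange, dotted lines at the fold of 5 to 4; classes right of the vertical line have under 200 cells in at least 1 library. Left of it every point but Txnip in endothelial-like and mural-like cells lies between the dotted lines, and the spread widens in neuroblast-like and ependymal-like cells.

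The oxidase genes in microglia-like cells differed little between the libraries. The Mr1-/- over Mr1+/+ log2 ratio was 0.04 for Cyba, -0.01 for Ncf4 and -0.18 for Ncf1. Ncf1 was lower in Mr1-/- cells by more than counting error, at a ratio of 0.879 (0.815 to 0.948), but within the fold. BC017643 passed the fold, with a ratio of 0.778 (0.689 to 0.879). Cybb had too few UMIs for a ratio to be read.

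Txnip levels were lower in Mr1-/- than in Mr1+/+ vessel cells. Its level was 278 CPM (261 to 296) in Mr1-/- and 365 CPM (345 to 386) in Mr1+/+ endothelial-like cells, a ratio of 0.761 (0.700 to 0.828). In mural-like cells it was 110 CPM (97.1 to 124) for Mr1-/- and 153 CPM (139 to 168) for Mr1+/+, a ratio of 0.718 (0.614 to 0.840). Intervals of the 2 libraries did not overlap in either class. The thinned share of endothelial-like cells with a Txnip UMI was 33.9% in the Mr1-/- and 40.9% in the Mr1+/+ sample (43.0% and 53.7% unthinned), and that of mural-like cells 13.7% and 18.9% (18.6% and 27.1% unthinned). Microglia-like cells differed less, with 501 CPM for Mr1-/- and 535 CPM for Mr1+/+ and a ratio of 0.937 (0.880 to 0.996). Astrocyte-like cells had 35.5 CPM for Mr1-/- and 59.9 CPM for Mr1+/+, a ratio of 0.593 (0.427 to 0.811), but Txnip did not reach the level needed to be measured there. In oligodendrocyte-like cells, 39.9 CPM and 43.1 CPM, the interval of the ratio included 1.

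Within vessel cells the Txnip difference was seen in most clusters. It was lower in Mr1-/- cells in 6 of the 7 endothelial-like and mural-like clusters with at least 25 cells in each library, and in 5 of these the interval of the ratio lay below 1. In the largest endothelial-like cluster Txnip had 240 CPM in Mr1-/- cells and 337 CPM in Mr1+/+ cells, and in the pericyte-marker cluster 95.9 and 172 CPM. In the endothelial-like cluster led by Plvap, a gene of fenestrated vessels, Txnip was higher than in the others, at 992 CPM in 51 Mr1-/- cells and 964 CPM in 30 Mr1+/+ cells, with a ratio of 1.03 (0.787 to 1.35). Mitochondrial content moved with the mural-like result: 26.3% of Mr1-/- and 20.8% of Mr1+/+ mural-like cells had over 5% mitochondrial UMIs. When cells were clustered anew with a limit of 5%, the Txnip log2 ratio in mural-like cells was -0.21, no longer past the fold, and in endothelial-like cells -0.37. Sod3 and Cyba passed the fold upwards in mural-like cells under that limit, at log2 ratios of 0.36 and 0.32. Txnip exons overlap those of an antisense gene, Gm15441, on the other strand. Whether counting used the strand is not stated in the labels, so reads of the pair cannot be told apart.

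**Figure D4:**
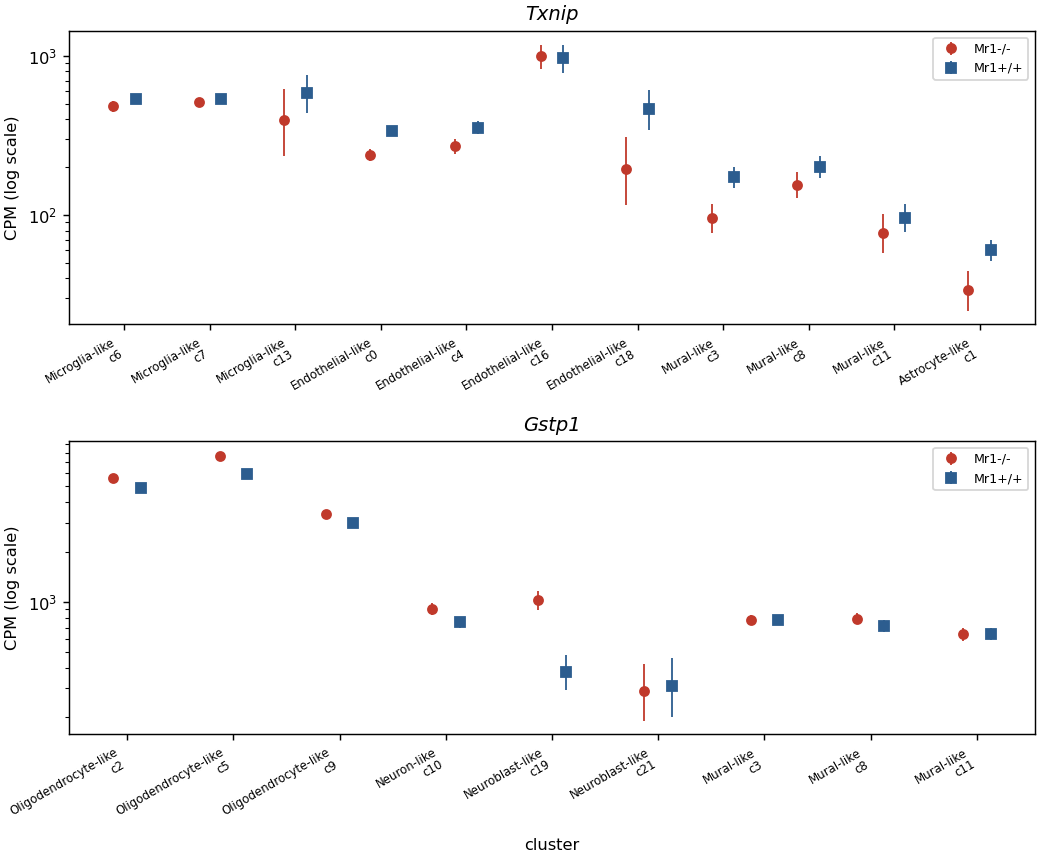
CPM (log scale) of Txnip and Gstp1 by cluster, Mr1-/- library as circles left of the Mr1+/+ one as squares, bars are 95% Poisson intervals. Txnip symbols of Mr1-/- cells sit below those of Mr1+/+ cells in the endothelial-like clusters c0, c4 and c18 and the mural-like clusters, but not in c16, the Plvap cluster; Gstp1 is higher in Mr1-/- cells in the oligodendrocyte-like clusters and in the neuroblast-like cluster c19.

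The Txnip promoter (GRCm38.p6, chr3:96557707-96558006, plus strand) is printed since Txnip alone of the 39 genes passed the fold in large classes. It is known to hold paired sites for the glucose-responsive factor MondoA and its partner Mlx, and these were searched on both strands as 2 copies of CACGNG set 5 bases apart. Of all 32817 promoters 16 (0.0488%) held a match, and of the 33 genes Txnip alone. The match, in capitals, starts 85 bases before the gene's start.
Txnip: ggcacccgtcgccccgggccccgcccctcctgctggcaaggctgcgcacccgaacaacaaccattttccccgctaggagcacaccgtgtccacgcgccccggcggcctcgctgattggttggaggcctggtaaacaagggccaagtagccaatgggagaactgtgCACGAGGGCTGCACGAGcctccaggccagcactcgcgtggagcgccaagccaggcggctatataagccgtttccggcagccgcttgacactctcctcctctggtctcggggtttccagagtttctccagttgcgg
The presence of these letters is a description of the sequence and was not linked to the counts by any measurement here.

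Differences below the fold but larger than counting error were found for abundant members. Gstp1 in oligodendrocyte-like cells had 5681 CPM (5609 to 5754) in Mr1-/- cells and 4705 CPM (4652 to 4759) in Mr1+/+ cells, a ratio of 1.21 (1.19 to 1.23). It was higher in Mr1-/- cells in all 3 deep oligodendrocyte-like clusters, at ratios of 1.15, 1.29 and 1.13. In microglia-like cells Gstp1 stood at 240 and 212 CPM, a ratio of 1.13 (1.03 to 1.24), and in endothelial-like, mural-like and astrocyte-like cells its interval included 1. The near-identical gene Gstp2 had 195 UMIs in Mr1-/- cells and 251 in Mr1+/+ cells, so that the sharing of reads between the copies is uncertain. Selenop was lower in Mr1-/- endothelial-like cells, at a ratio of 0.913 (0.883 to 0.944), and higher in Mr1-/- microglia-like cells, at 1.06 (1.03 to 1.095). Gpx4 was higher in Mr1-/- endothelial-like cells at 1.096 (1.04 to 1.155) and oligodendrocyte-like cells at 1.08 (1.04 to 1.12). Prdx1 in astrocyte-like cells had a ratio of 1.1 (1.04 to 1.165). Prdx3 there had 107 CPM in Mr1-/- cells and 135 CPM in Mr1+/+ cells, a ratio of 0.793 (0.656 to 0.956), which fell within the fold after adding 10 CPM.

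Sod3 differed in direction between mural-like clusters. In the class as a whole the Mr1-/- over Mr1+/+ ratio was 1.16 (1.102 to 1.21). The pericyte-marker cluster, which carries most Sod3, made up 537 of 971 Mr1-/- and 476 of 965 Mr1+/+ mural-like cells. Within it the levels were 3179 CPM (3068 to 3293) in Mr1-/- cells and 3007 CPM (2898 to 3120) in Mr1+/+ cells, a ratio of 1.06 (1.004 to 1.11). In the cluster led by Nrip2 they were 297 CPM (260 to 337) in Mr1-/- cells and 382 CPM (340 to 428) in Mr1+/+ cells, a ratio of 0.776 (0.651 to 0.924), and in the Cnn1 cluster the interval of the ratio (0.806 to 1.52) included 1. The difference between the clusters was not tested.

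In the smaller classes ratios were wide for all genes, and the members followed. In neuron-like cells 0 of 18 measured members passed the fold, where 16.1% of all genes did. In ependymal-like cells it was 4 of 24 against 30.1%, with Gpx8 higher and Gclm, Nfe2l2 and Gstm1 lower in Mr1-/- cells. In neuroblast-like cells it was 10 of 16 against 46.2%, with 7 higher (Gpx4, Prdx1, Prdx4, Prdx5, Prdx6, Gclm and Gstp1) and 3 lower (Txnip, Hmox2 and Selenow). By cluster, Gstp1 and Gpx4 were higher in the one led by Neurod1 (29 and 42 cells) and not in the other. In the Neurod1 cluster Gstp1 had 1021 CPM in Mr1-/- cells and 375 CPM in Mr1+/+ cells and Gpx4 818 and 316 CPM. In the cluster led by Dlx1 (30 and 25 cells) Gstp1 had 289 and 312 CPM and Gpx4 385 and 424 CPM.

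Over whole libraries more members differed than within classes, and the classes were of unequal size in the libraries. Class size here means the share of a library's kept UMIs that lay in the class, which mixes cell number with UMIs per cell. Of 37 members with at least 50 UMIs in each library, 5 had a whole-library CPM ratio past the fold: Cyba at 1.29 and Ncf4 at 1.26 were higher in Mr1-/- cells, and Prdx6 at 0.716, Gstm1 at 0.719 and Slc7a11 at 0.744 were lower. The ratio expected from class sizes alone, with every class held at its Mr1+/+ level, was 1.248 for Cyba, 1.28 for Ncf4, 0.725 for Prdx6, 0.793 for Gstm1 and 0.698 for Slc7a11. Dividing by it left 0 of 37 past the fold, with a range between 0.845 for Txnip and 1.18 for Gstp1. The same counts were not made over all genes, so neither number is read as a result about the members. Txnip was level over whole libraries, at 216 CPM in Mr1-/- cells and 211 CPM in Mr1+/+ cells, where class sizes alone gave 1.21. In these whole-library values a change in the number of cells of a class and a change in RNA per cell cannot be told apart.

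**Figure D5:**
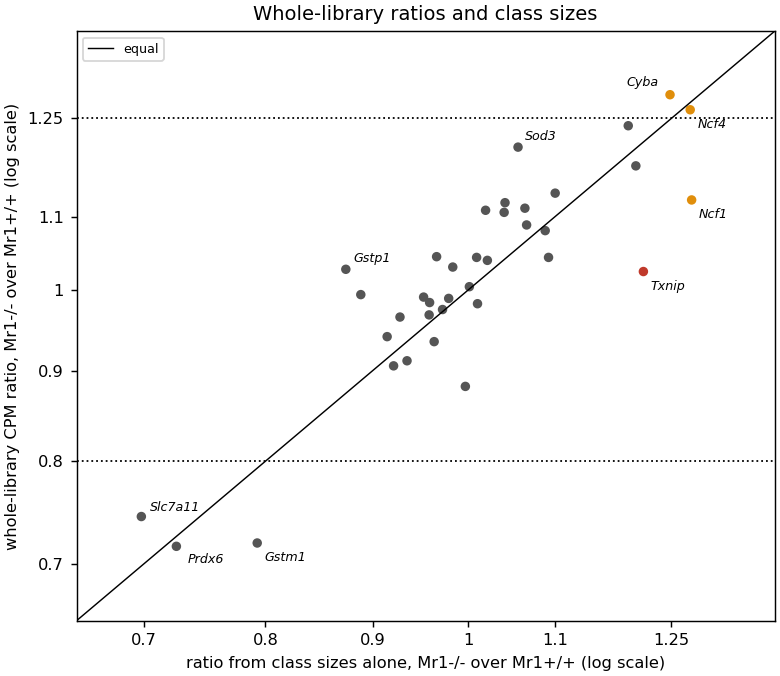
Whole-library CPM ratio of Mr1-/- over Mr1+/+ (vertical, log scale) against the ratio that class sizes alone would give (horizontal, log scale) for 37 members. Class size is the share of a library's kept UMIs that lay in the class. Oxidase genes are in orange and Txnip in red. The solid line marks equality and dotted lines the fold of 5 to 4. Prdx6, Slc7a11 and Gstm1 at the lower left and Cyba and Ncf4 at the upper right lie near the line, while Txnip lies below it and Gstp1 above it.

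In each list of neighbouring pathways 1 gene passed the fold in a large class. Of the NADPH oxidase partners and relatives 7 of 14 were measured in microglia-like cells, with BC017643 lower and none higher, where 2.26% of all genes passed either way. Of 9 NADPH supply genes, 6 of them measured in astrocyte-like cells (4.88% of all genes past the fold there), Taldo1, Tkt and Idh2 had the most UMIs, and Pgls, an enzyme of the pentose phosphate pathway, was the single one past the fold in a large class, at 99.7 CPM in Mr1-/- and 132 CPM in Mr1+/+ astrocyte-like cells. Of 28 further glutathione and glutaredoxin genes, 13 of them measured in astrocyte-like cells, Gstm5, Glo1 and Glrx3 had the most UMIs, and Gstt1, a theta-class transferase, was the single one past it, at 102 and 79.2 CPM in astrocyte-like cells. Of 18 further selenoprotein genes, 7 of them measured in astrocyte-like cells and led by Selenok, Selenof and Selenom, Dio2, the deiodinase that activates thyroid hormone, was lower, at 56.0 CPM in Mr1-/- and 109 CPM in Mr1+/+ astrocyte-like cells, a ratio of 0.514 (0.399 to 0.657). Of 9 NRF2 partners and regulators, 4 of them measured in endothelial-like cells (5.48% of all genes past the fold there) and led by Sqstm1, Rbx1 and Mafg, the small Maf gene Maff was lower, at 53.7 CPM in Mr1-/- and 87.2 CPM in Mr1+/+ endothelial-like cells, a ratio of 0.616 (0.511 to 0.740). With so few measured genes a list, 1 call is not set apart from the share over all genes.

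Some values carry a limit of counting or position. Exons of 10 of the 39 genes overlap a gene on the opposite strand in GENCODE M21 (mm10), among them Ncf1 with Gtf2ird2, Selenop with Ccdc152, Prdx2 with Junb and Prdx5 with Trmt112. Gclm also overlaps a pseudogene on its own strand, and Gstm1 has close relatives of which Gstm5 had 4391 UMIs in Mr1-/- cells and 7488 in Mr1+/+ cells. Prdx6 (chr1:161240112-161251219, minus strand) lies on the chromosome of the deleted gene (Mr1, chr1:155127277-155146814, minus strand). Its ratio of Mr1-/- over Mr1+/+ in astrocyte-like cells, its highest class, was 0.985 (0.950 to 1.02).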

How the data were processed

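Hippocampal cells of 2 libraries, 1 Mr1-/- and 1 Mr1+/+, were analysed from UMI counts per gene and cell barcode as deposited by the authors; barcodes were already filtered. The matrices name Cell Ranger 3.1.0 per the file headers, whereas Cell Ranger 5.1.0, STAR and mm10 are named per the submitters' processing notes, and the annotation release is not stated there. Cells with at least 300 genes and at most 10% mitochondrial UMIs were kept, and Scrublet (expected rate 0.05) removed 171 of 5278 Mr1-/- and 335 of 6327 Mr1+/+ cells. Counts were scaled to 10000 a cell and clustered with Leiden (resolution 1.0, 2000 variable genes without the 39 members, 30 components, 15 neighbours, seed 7) in scanpy 1.11.5, leidenalg 0.10.2 and Python 3.11.15, with SciPy 1.17.1 for intervals. A cluster was named where at least 3 markers of a class were each found in at least 10% of its cells and its 10 leading genes did not go against the name. UMIs were summed per class and library; intervals are exact Poisson for levels, exact Clopper-Pearson for shares and exact conditional binomial for ratios, at 95%. Every member was accounted for by its highest class; between genotypes the rule named members past the fold in a class of at least 200 cells in each library, up to 4 others per class with the most UMIs, and up to 3 genes per pathway list plus those past the fold. Members named outside it (such as Prdx3, and those of the small classes) were chosen after their values were seen. The calling code was tested on simulated data. Members and lists were chosen with earlier results of these data known. Gene positions are GENCODE M21 (mm10) and promoters RefSeq (GRCm38.p6). Alternatives covered clustering with the members left in, resolution, mitochondrial limits, doublets, weighting, thinning, pseudocount, minimum counts, scaling and fold.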

Additional observations from a re-analysis of the deposited data

Results flagged for a closer look

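Gclm, the modifier subunit of glutamate-cysteine ligase, moved in opposite directions in 2 small classes. Its log2 ratio of Mr1-/- over Mr1+/+, after adding 10 CPM, was 1.03 in neuroblast-like cells, with 127 CPM in Mr1-/- and 56.8 CPM in Mr1+/+ cells, and -0.48 in ependymal-like cells, with 171 CPM in Mr1-/- and 243 CPM in Mr1+/+ cells. The ratio was 2.23 (1.20 to 4.36) in 59 and 67 neuroblast-like cells and 0.705 (0.510 to 0.971) in 72 and 59 ependymal-like cells. The difference between the classes was not tested, since each genotype had 1 library.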

How the results depend on the processing

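The share of oxidase UMIs held by microglia-like cells was 81.89% in Mr1-/- and 81.27% in Mr1+/+ cells with a mitochondrial limit of 5%, 78.92% and 77.95% with doublets kept, and 78.13% in Mr1+/+ cells with the members left in the clustering. The antioxidant share there was 16.82% and 12.55%, 15.5% and 12.19%, and 11.36% under the same settings. Their summed oxidase level was 1947 and 1928 CPM with doublets kept and 1933 CPM in Mr1-/- cells with each cell weighing the same. Members past the fold numbered 2 in mural-like (Sod3, Cyba) and 1 in astrocyte-like cells (Txnip) at the 5% limit, and 1 in astrocyte-like cells with the members left in (Txnip) and at a 20% limit or a pseudocount of 1 CPM (Prdx3). With each cell weighing the same there were 2 in microglia-like (Sod2, Cat), 2 in mural-like (Cat, Txnip) and 1 in astrocyte-like cells (Prdx3). After thinning there were 2 in microglia-like (Prdx4, Keap1) and 1 in astrocyte-like cells (Prdx3). Minimums of 10 UMIs or 1 UMI each gave 3 in endothelial-like (Sod3, Txnip, Hmox1), 2 in mural-like (Cat, Txnip) and 2 in astrocyte-like cells (Txnip, Srxn1), and a fold of 1.5 gave 0 in endothelial-like and 0 in mural-like cells. The shares over all genes under these settings are not given here, so the counts are not read as results about the members. The cause was not tested. Over the 9 alternatives that kept the fold and the minimum counts and changed clustering, cell filters, weighting, thinning, scaling or pseudocount, Txnip passed in endothelial-like cells in 9 (log2 ratio between -0.41 and -0.36) and in mural-like cells in 8 (between -0.47 and -0.21). No result reversed. No paired analysis was possible because each genotype had 1 library. Cybb and Gpx3 had too few UMIs for a ratio to be read.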
